A study of Mus musculus with 6 samples.

Results

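A set of 10 genes of macrophages is described here across infarcted mouse hearts: the 3 subunits of complement C1q (C1qa, C1qb, C1qc), 4 surface receptors of resident macrophages (Folr2, Lyve1, Cd163, Mrc1), and 3 genes for secreted or lysosomal proteins of myeloid cells (F13a1, Ctss, Lyz2). They were taken by symbol, and all 10 had 1 feature each among the 19572 features with a gene symbol. Expression was measured on Clariom S mouse arrays in RNA of whole hearts, with 2 arrays, described as independent biological replicates, in each of 3 groups. TTg hearts, from mice with the genotype Tcf21iCre/Tomato/MGTH2A, were taken 3 months after myocardial infarction. Ctrl hearts, from mice with Tcf21iCre/Tomato, were taken at 3 months and, in a separate group, at 2 months. MGTH2A carries Mef2c, Gata4, Tbx5 and Hand2, transcription factors of the heart, and Tcf21iCre is an inducible Cre driven from Tcf21, a gene of cardiac fibroblasts. All 6 mice were male, carried the Cre and the reporter, and had their left coronary artery ligated in experiments on 8-week-old animals. Mice with an ejection fraction above 45% after 2 days were left out by the authors. No uninfarcted heart was analysed here.

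Resident macrophages of the heart are mostly seeded before birth and renew themselves locally, while monocytes recruited after injury give rise to further macrophages in the scar. C1q opens the classical complement pathway: A, B and C chains, each with a collagen-like stalk and a globular head, bind antibody complexes or dying cells and activate the proteases C1r and C1s. In most tissues macrophages are the main source of C1q, which also aids the uptake of dead cells. FOLR2, a folate receptor, LYVE1, a hyaluronan receptor, CD163, a receptor for haemoglobin bound to haptoglobin, and the mannose receptor MRC1 are used together to mark long-lived tissue macrophages. Lyve1 is also made by lymphatic endothelium. F13a1 encodes the crosslinking subunit of coagulation factor XIII and is found in macrophages and platelets, Ctss the lysosomal protease cathepsin S, which trims the invariant chain of class II molecules, and Lyz2 the lysozyme of macrophages and neutrophils.

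In the RefSeq gene table (GRCm38.p6), C1qb, C1qc and C1qa lie next to each other on chromosome 4 with no other protein-coding gene between them. Lyz2 on chromosome 10 lies next to Lyz1, its close relative, and Ctss on chromosome 3 lies next to Ctsk, another cathepsin. Promoter sequences from RefSeq were at hand for 8 of the 10 genes, in 10 windows. The windows of C1qb, Mrc1 and Ctss are shown because these genes were among those with the largest differences between TTg and Ctrl hearts and hold the PU.1 core. The windows of Lyz2 and Lyz1 are shown because the pair is nearly a copy near the start. Each holds the 250 bases before the annotated start on the gene's strand, written 5′ to 3′ in build GRCm38.p6, with the motif matches named below in capitals.
C1qb promoter (chr4:136886201-136886450, minus strand): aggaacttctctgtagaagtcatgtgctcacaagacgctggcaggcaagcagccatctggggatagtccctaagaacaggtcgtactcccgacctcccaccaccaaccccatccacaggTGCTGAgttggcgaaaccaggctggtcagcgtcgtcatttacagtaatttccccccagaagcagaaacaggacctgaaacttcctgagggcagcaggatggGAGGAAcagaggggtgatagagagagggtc
Mrc1 promoter (chr2:14229164-14229413, plus strand): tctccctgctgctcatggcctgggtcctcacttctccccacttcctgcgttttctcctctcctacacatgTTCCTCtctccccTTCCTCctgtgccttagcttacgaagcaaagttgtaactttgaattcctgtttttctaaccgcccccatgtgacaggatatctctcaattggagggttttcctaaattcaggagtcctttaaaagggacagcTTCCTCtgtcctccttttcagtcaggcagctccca
Ctss promoter (chr3:95526536-95526785, plus strand): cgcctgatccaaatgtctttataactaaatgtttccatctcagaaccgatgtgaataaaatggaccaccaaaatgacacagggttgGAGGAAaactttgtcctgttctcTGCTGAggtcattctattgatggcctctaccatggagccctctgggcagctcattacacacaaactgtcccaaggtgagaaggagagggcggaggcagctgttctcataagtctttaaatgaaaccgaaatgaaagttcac
Lyz2 promoter (chr10:117282273-117282522, minus strand): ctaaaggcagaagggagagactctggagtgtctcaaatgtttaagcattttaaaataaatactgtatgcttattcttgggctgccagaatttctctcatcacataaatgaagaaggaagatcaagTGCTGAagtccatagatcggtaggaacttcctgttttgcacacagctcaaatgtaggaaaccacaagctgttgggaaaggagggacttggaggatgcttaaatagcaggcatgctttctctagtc
Lyz1 promoter (chr10:117292869-117293118, minus strand): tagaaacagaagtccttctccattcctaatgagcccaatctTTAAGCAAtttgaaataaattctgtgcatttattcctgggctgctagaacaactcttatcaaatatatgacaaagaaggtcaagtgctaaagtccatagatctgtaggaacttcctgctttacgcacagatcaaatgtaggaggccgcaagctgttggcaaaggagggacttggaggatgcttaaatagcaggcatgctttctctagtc

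A search for 6 motifs covered both strands. The core GAGGAA of PU.1, the myeloid factor encoded by Spi1, was in 5 of the 8 genes (C1qb, C1qc, Mrc1, F13a1 and Ctss), in 5 of their 10 windows, against 23.3% of all 32851 promoter windows of this length. In C1qb it begins 30 bases before the start, and Mrc1 has 3 matches, all on the opposite strand. The MAF recognition core TGCTGA was in 4 of the 8 genes (C1qb, Folr2, Ctss and Lyz2) and 5 of the 10 windows, against 16.1% of all windows. The AP-1 site TGANTCA was in 1 of the 10 windows, of Folr2, against 6.75% of all windows. The C/EBP site TTGCNNAA was in none of the 10 windows (9.56% of all windows), though Lyz1 holds it. The STAT site TTCNNNGAA (7.02%) and the NF-kB site (0.14%) were in none. No match overlapped another. These matches describe letters in the window and show no binding. Lyz2 and Lyz1 had the same base at 92 of the 100 positions nearest the start and at 60.8% of the whole window when set side by side without gaps. Their array features are separate, but whether the probes tell their transcripts apart was not tested.

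All values are log2 signals as deposited, with 2 arrays per group, and their number limits the precision. Over all 22206 features the signals ran from 1.77 to 19.93, with array medians from 4.91 to 5.0. Each of the 10 genes lay above 3.65, the 30th percentile of mean signal, on every array. As a check of the labels, Tbx5 had 10.72 and 9.31 in TTg hearts, against 6.42 and 7.47 in Ctrl hearts at 3 months. Mef2c had 15.93 and 13.94 in TTg, against 12.52 and 12.87. Hand2 had 9.40 and 8.13 in TTg, against 8.01 and 7.57, and Gata4 had 14.05 and 13.43, against 13.22 and 13.75. The features do not separate the transgene from the endogenous genes. Differences are of group means ± SE from a limma fit to all 6 arrays, and a call needs a Benjamini-Hochberg adjusted p under 0.05 over all features.

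TTg and Ctrl hearts at 3 months differ in the transgene and not in time. All 10 genes had a lower mean in TTg hearts, against 48.4% of all features, with differences of −0.46 to −2.41 on the log2 scale, with a median difference of −1.305 against 0.01 over all features. None of the 10 passed limma's test, while 0.0045% of all features did, which is 1 feature. At an unadjusted p under 0.05, 4 of the 10 (Ctss, Lyz2, C1qb and Mrc1) were lower, against 4.11% of all features. For 7 of the 10, both TTg values lay below both Ctrl values, against 19.3% of all features. A mean at least 2-fold lower in TTg was seen for 7 of the 10, against 2.86%, and both this and the unadjusted p held for 4, against 3.0% of all features in either direction. These counts depended on the arrays used. Without Ctrl replicate 1, 3 of the 10 (C1qb, Ctss and Lyz2) were at least 2-fold lower and 0 had an unadjusted p under 0.05, against 1.66% and 1.73% of all features. The median difference was −1.08 without TTg replicate 2, −1.80 without TTg replicate 1 and −2.12 without Ctrl replicate 2. For 3 of the 10, Ctss, Lyz2 and C1qb, the difference was also larger than the wider of the gaps between replicates, against 12.8% of all features. In RNA from whole hearts, fewer macrophages and less RNA of a gene per macrophage cannot be told apart.

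Among the C1q subunits, C1qb had 8.90 and 7.92 in TTg hearts, against 11.49 and 9.53 at 3 months and 11.17 and 10.63 at 2 months in Ctrl hearts. Both TTg values lay below all 4 Ctrl values. The difference to Ctrl at 3 months was −2.10 ± 0.64, or 4.29-fold lower (95% interval −3.60 to −0.60, adjusted p = 0.661). C1qa had 8.76 and 7.28 in TTg, against 10.16 and 8.48 at 3 months and 10.44 and 9.01 at 2 months in Ctrl. The higher TTg value exceeded the lower Ctrl value at 3 months, so the groups overlapped there, and the difference was −1.30 ± 0.74 (adjusted p = 0.741). C1qc had 7.37 and 7.07 in TTg, against 9.15 and 7.59 at 3 months and 10.04 and 7.89 at 2 months in Ctrl. The TTg values were close together and lowest, and the Ctrl values were spread over more than their distance to TTg. The difference was −1.15 ± 0.74 at 3 months (adjusted p = 0.781). The 3 chains shared an order of group means, with TTg lowest and Ctrl at 2 months highest, and the intervals of C1qa and C1qc included 0.

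Of the receptors, the mannose receptor gene Mrc1 had 10.99 and 10.35 in TTg, against 13.05 and 11.46 at 3 months and 12.78 and 11.98 at 2 months in Ctrl. Every TTg value was below every Ctrl value, and the difference at 3 months was −1.58 ± 0.55, or 3.00-fold lower (95% interval −2.87 to −0.30, adjusted p = 0.661). The folate receptor gene Folr2 had 8.03 and 7.27 in TTg, against 9.74 and 8.18 at 3 months and 10.51 and 9.37 at 2 months in Ctrl. It too did not overlap, at −1.31 ± 0.59 (adjusted p = 0.679), although the nearest TTg and Ctrl hearts at 3 months lay close together. Lyve1 had 10.84 and 10.59 in TTg, against 11.57 and 10.78 at 3 months and 12.80 and 11.49 at 2 months in Ctrl. It overlapped at 3 months and had the smallest difference of the 10 genes, −0.46 ± 0.46 (95% interval −1.55 to 0.63, adjusted p = 0.864). Of 6 markers of lymphatic endothelium, 5 had a lower mean in TTg than in Ctrl at 3 months, 3 without overlap (19.3% of all features). The other 1 was higher without overlap (19.1% of all features), and the list's median was −0.55. The part of lymphatic endothelium in the values of Lyve1 was not tested. Cd163 had 5.94 and 7.10 in TTg, against 7.15 and 7.06 at 3 months and 7.41 and 7.33 at 2 months in Ctrl. Its difference of −0.58 ± 0.38 (adjusted p = 0.781) rested on TTg replicate 1, and without that heart it was −0.005.

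Among the other 3 genes, Ctss had 7.54 and 6.83 in TTg, against 10.58 and 8.61 at 3 months and 9.51 and 8.19 at 2 months in Ctrl. Both TTg hearts were below all Ctrl hearts, and the difference of −2.41 ± 0.69 at 3 months was the largest of the 10 genes, 5.31-fold lower (95% interval −4.04 to −0.78, adjusted p = 0.661). Lyz2 had 12.92 and 11.48 in TTg, against 14.96 and 13.55 at 3 months and 14.52 and 13.78 at 2 months in Ctrl. Again the groups did not overlap, at −2.05 ± 0.61 or 4.16-fold lower (adjusted p = 0.661). Its relative Lyz1, at 5.25 and 4.26 in TTg against 6.07 and 5.41 in Ctrl at 3 months, differed by −0.98 ± 0.51 (adjusted p = 0.714). F13a1 had 9.10 and 9.16 in TTg, against 10.13 and 9.28 at 3 months and 10.51 and 9.68 at 2 months in Ctrl. The TTg hearts were nearly equal and just below the lower Ctrl heart, with a difference of −0.58 ± 0.38 (adjusted p = 0.781). Markers of platelets, which also carry factor XIII, had list means of 4.74 and 7.11 in TTg, against 5.15 and 5.03 in Ctrl at 3 months. They were highest in TTg replicate 2, where F13a1 had nearly the same value as in TTg replicate 1. Their list includes Pf4, which is also counted below among other genes tied to resident macrophages. The part of platelets in the values of F13a1 was not tested.

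**Figure D1:**
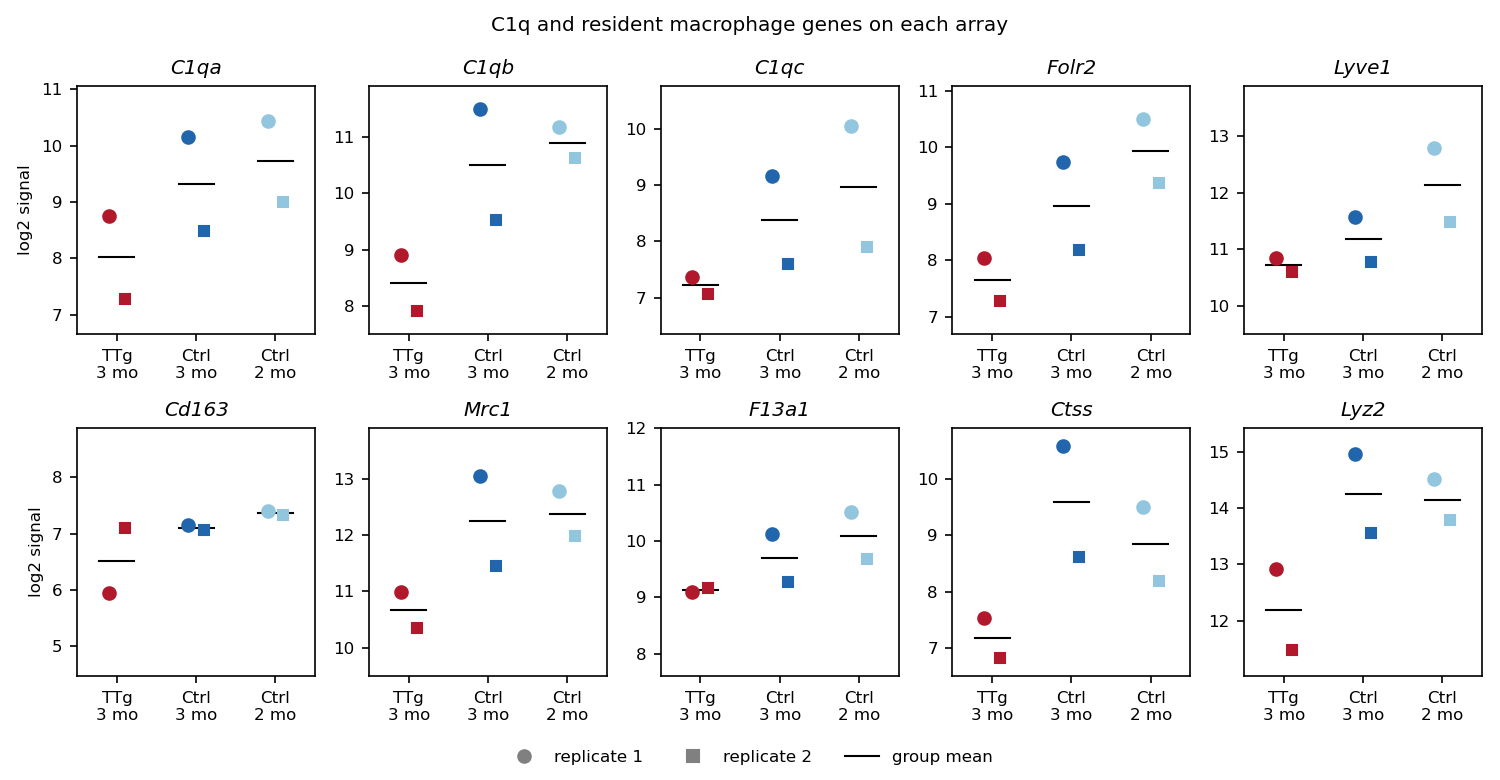
Log2 signal of each of the 10 genes (vertical axis, each panel spanning the same range of log2 units) in TTg hearts at 3 months, Ctrl hearts at 3 months and Ctrl hearts at 2 months. Circles are replicate 1, squares replicate 2 and lines the means of 2 arrays; TTg hearts hold the lowest value of every gene, and replicate 1 is above replicate 2 for all 10 genes in both Ctrl groups.

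Hearts of one group differed widely in these genes. In Ctrl at 3 months, replicate 1 was above replicate 2 for 10 of 10 genes, by 0.09 to 1.97 with a median of 1.56. In Ctrl at 2 months it was above for 10 of 10 as well, by 0.08 to 2.15 with a median of 0.98. In TTg it was above for 8 of 10, with gaps from −1.16 to 1.48. Over all features replicate 1 was the higher one in 50.4% for TTg, 51.0% for Ctrl at 3 months and 47.2% for Ctrl at 2 months. The labels do not say that equal numbers mark a shared batch or litter. The lowest value of each gene was in TTg replicate 2 for 8 genes and in TTg replicate 1 for Cd163 and F13a1. The highest was in Ctrl 2-month replicate 1 for 6 genes and in Ctrl 3-month replicate 1 for the other 4, C1qb, Mrc1, Ctss and Lyz2. The size of the difference to Ctrl at 3 months depended on the Ctrl heart used. Without Ctrl 3-month replicate 1, all 10 genes were still lower in TTg but the median difference was −0.54, and without Ctrl 3-month replicate 2 it was −2.12. Ctss then ranged from −3.40 to −1.43 over the arrays left out, Lyz2 from −2.78 to −1.33, C1qb from −3.08 to −1.12, Lyve1 from −0.85 to −0.06 and C1qa from −2.14 to −0.46.

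All 5 measured fibroblast markers also had lower means in TTg than in Ctrl at 3 months, 4 without overlap and 2 by at least 2-fold, none at an unadjusted p under 0.05. Against Ctrl at 2 months, 4 of the 5 were lower, 2 of them at that level, and 1 was higher. The mean of 5 such genes (Col1a1, Dpt, Dcn, Lum and Ddr2) was 12.62 and 11.86 in TTg, against 13.42 and 12.77 in Ctrl at 3 months and 13.66 and 12.46 at 2 months, with replicate 1 again the higher of each pair. Cardiomyocyte markers, of which several are near the top of the scale, were at 18.89 and 19.0 in TTg, against 18.47 and 18.87 and, at 2 months, 18.51 and 18.76. Blood endothelium was at 12.50 and 12.11 in TTg, against 12.36 and 12.04 at 3 months. The part of these cell types in the values of the macrophage genes was not tested. Markers of other immune cells had list means near the dim limit of 3.65. On the 6 arrays they ran from 3.45 to 4.13 for neutrophils, 3.04 to 3.52 for dendritic cells, 3.39 to 3.86 for B cells and 3.78 to 4.04 for T and NK cells. Mast cell markers ran from 3.78 to 4.96. Alveolar macrophage markers, which would show lung tissue, ran from 3.75 to 4.32.

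Ctrl hearts at 3 and at 2 months share a genotype and differ in time after infarction. Of the 10 genes, 8 had a lower mean at 3 months and 2, Ctss and Lyz2, a higher one (48.9% of all features had a lower mean), with a median of −0.39 against 0.01 over all features. None passed limma's test, against 0.0045% of all features, and 0 of the 10 had an unadjusted p under 0.05, against 8.0% of all features, 4.09% lower and 3.91% higher. None had that p with at least a 2-fold difference, against 2.74% of all features. Only for Cd163 were the 3-month values lower without overlap, against 17.4% of all features, and no gene was higher without overlap, against 18.3%. The largest differences were those of Folr2 (−0.98 ± 0.59, adjusted p = 0.715) and Lyve1 (−0.97 ± 0.46, adjusted p = 0.655). The C1q subunits differed by −0.39 to −0.59 with standard errors of 0.64 to 0.74. Mrc1 (−0.12 ± 0.55), F13a1 (−0.39 ± 0.38), Cd163 (−0.26 ± 0.38) and Lyz2 (0.10 ± 0.61) differed by little more than their standard error or less. Ctss was at 0.74 ± 0.69, the one gene of the 10 with a mean higher by more than 0.5. The sign was the same whichever array was left out for Folr2, Lyve1 and Cd163 alone. Without Ctrl 3-month replicate 2 the median of the 10 genes was 0.31, and without Ctrl 2-month replicate 1 it was 0.15 (3 and 4 of the 10 lower). Ctrl 2-month replicate 1, which held the highest Lyve1, Folr2 and C1qc, also stood apart in genes of other tissues. Adipoq, the fat hormone adiponectin, had 10.34 there and at most 4.83 elsewhere, and Ccl21a, made by lymphatic vessels and lymph nodes, had 15.62 there and at most 12.40 elsewhere. Of the 6 lymphatic markers, 3 (Ccl21a, Flt4 and Sox18) were highest in that heart, and Prox1, Pdpn and Reln were not. Mast cell markers also had lower means at 3 than at 2 months, in 4 of 6, with 3 (Cpa3, Mcpt4 and Tpsb2) at least 2-fold lower at an unadjusted p under 0.05. Their list means were 4.29 and 3.78 at 3 months, against 4.96 and 4.58 at 2 months. The part of these genes in the values of the 10 genes was not tested.

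TTg hearts at 3 months and Ctrl hearts at 2 months differ in transgene and time, which cannot be told apart in that comparison, and it shares the TTg hearts with the first comparison and the 2-month Ctrl hearts with the second. All 10 genes had a lower mean in TTg, against 47.4% of all features, with no overlap between the groups, against 18.9% lower and 21.2% higher without overlap. Their median difference was −1.71, against 0.02 over all features, and 8 of the 10 were lower by more than the wider replicate gap, against 12.8%. At an unadjusted p under 0.05, 8 of the 10 were lower, against 5.41% of all features lower and 4.3% higher, and C1qa and Cd163 were not. A mean at least 2-fold lower was seen for 8 of the 10, against 3.42%, and both held for 7, against 3.97% in either direction. Without Ctrl 2-month replicate 1, the heart that stood apart, all 10 were still lower but the median was −0.998, C1qa was at −0.99 and C1qc at −0.67. Then 5 of the 10 were at least 2-fold lower and 2 had an unadjusted p under 0.05, against 2.36% and 3.18% of all features. The median was −1.35 without TTg replicate 2, −2.025 without TTg replicate 1 and −2.32 without Ctrl 2-month replicate 2. None of the 10, and 0 of 22206 features (0.0%), passed limma's adjusted threshold, while 2156 features (9.71%) had an unadjusted p under 0.05. The largest differences were those of C1qb (−2.49 ± 0.64, 5.62-fold lower, adjusted p = 0.345), Folr2 (−2.29 ± 0.59, 4.89-fold lower, adjusted p = 0.347) and Lyz2 (−1.95 ± 0.61, adjusted p = 0.411). Mrc1 (−1.71 ± 0.55), Ctss (−1.67 ± 0.69), C1qc (−1.75 ± 0.74), C1qa (−1.71 ± 0.74) and Lyve1 (−1.43 ± 0.46) followed. F13a1 (−0.96 ± 0.38) and Cd163 (−0.85 ± 0.38) had the smallest.

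**Figure D2:**
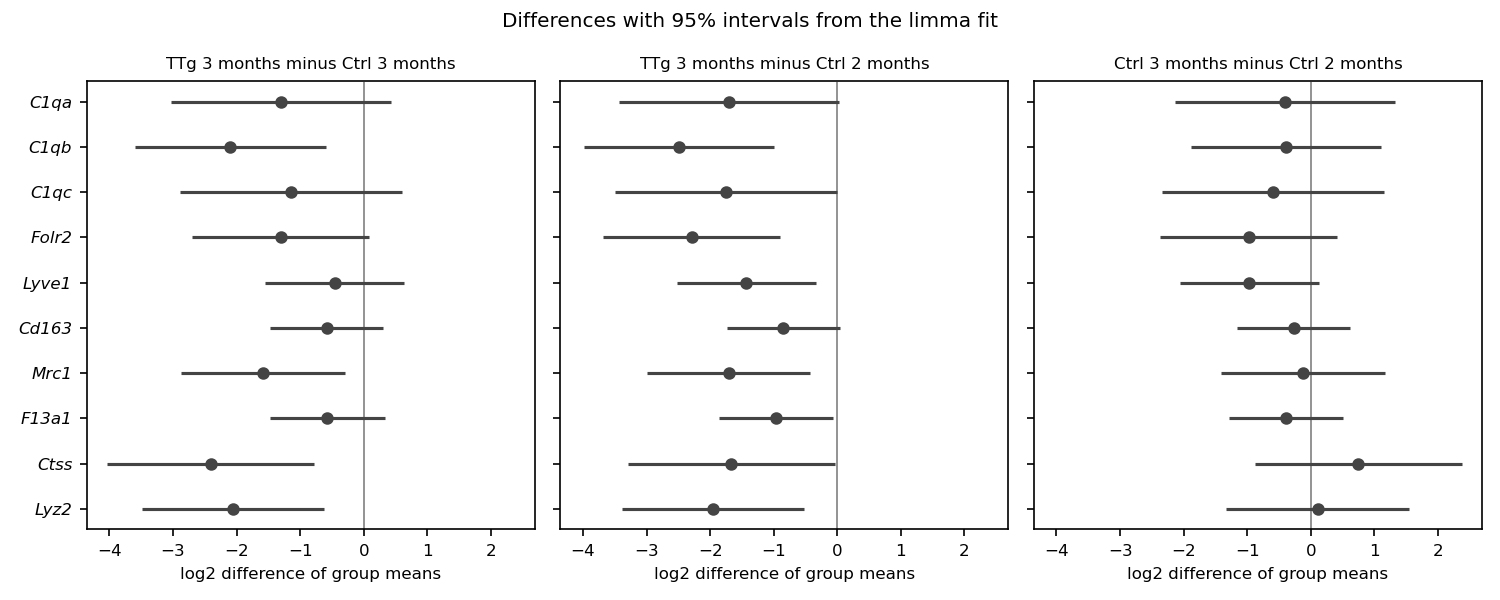
Log2 difference of group means (horizontal axis) for each of the 10 genes in the 3 comparisons; points are the differences and lines their 95% intervals from the limma fit, without adjustment for the number of features. Against Ctrl at 3 months the intervals of C1qb, Mrc1, Ctss and Lyz2 lie below 0, and between Ctrl at 3 and 2 months all 10 include 0.

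The genes were next set beside general macrophage genes. Of 22 pan-macrophage genes, 20 were measured, among them Csf1r, the receptor for the growth factor CSF1, and Adgre1, the F4/80 antigen. Against Ctrl at 3 months all 20 had a lower mean in TTg, with a median of −1.32, close to the −1.305 of the 10 genes. Of the 20, 17 were lower without overlap, against 19.3% of all features, and 10 at an unadjusted p under 0.05, against 4.11%. A mean at least 2-fold lower was seen for 15, against 2.86%. Without Ctrl replicate 1, 18 of the 20 were lower with a median of −0.615, and 1 was at least 2-fold lower, against 1.66% of all features. The median of the 20 was −2.0 without Ctrl replicate 2, −1.44 without TTg replicate 1 and −1.12 without TTg replicate 2. The largest differences were those of Spi1 (10.66 and 9.43 in TTg, against 13.27 and 10.92 in Ctrl, −2.05 ± 0.95, adjusted p = 0.688), the Fc receptor gene Fcgr3 (−1.97 ± 0.68, adjusted p = 0.661) and Mpeg1, which encodes a pore-forming protein of phagocytes (−1.90 ± 0.62, adjusted p = 0.661). Between Ctrl at 3 and 2 months, 14 of the 20 had a higher mean and 6 a lower one, with a median of 0.20, where the 10 genes had −0.39. This direction also depended on the array: without Ctrl 3-month replicate 1 the median of the 20 was −0.42 and 13 were lower, and without Ctrl 2-month replicate 2 it was −0.045 and 12 were lower. Against Ctrl at 2 months, 19 of the 20 were lower in TTg, with a median of −0.91, or −0.58 without Ctrl 2-month replicate 1.

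A difference between the mean of the 10 genes and the mean of the 20 pan-macrophage genes was taken on each array. Its size has no meaning by itself, since features differ in response, but its change between arrays can be compared. It was 1.95 and 1.83 in TTg, against 2.07 and 1.97 at 3 months and 2.80 and 2.53 at 2 months in Ctrl. Hearts of one group were thus much closer in this measure than in the genes themselves, and both 3-month groups lay below both 2-month hearts. TTg and Ctrl at 3 months differed by −0.14, a value that was 0.12 with the median of the pan-macrophage genes in place of their mean and −0.15 with Csf1r alone. Ctrl at 3 months was lower than Ctrl at 2 months by −0.64 with the mean and −0.93 with the median, but by only −0.02 when Csf1r alone stood for the pan-macrophage genes. The shift over time thus depends on which macrophage genes are used. For the 4 receptors the measure was 1.86 and 2.15 in TTg, against 1.65 and 1.89 at 3 months and 2.71 and 2.63 at 2 months in Ctrl. Folr2 and Lyve1 had the largest shifts with time relative to the pan-macrophage genes, −1.29 and −1.28. Lyz2 was at −0.21, and Ctss went the other way, at 0.43 with overlap between the Ctrl groups. The C1q subunits were at 1.25 and 0.75 in TTg, against 1.54 and 1.05 at 3 months and 2.38 and 1.77 at 2 months in Ctrl. F13a1, Ctss and Lyz2 together were at 2.76 and 2.48 in TTg, against 3.17 and 3.0 at 3 months and 3.35 and 3.14 at 2 months in Ctrl, and there both TTg hearts lay below all 4 Ctrl hearts. Relative to the pan-macrophage genes, Ctss (−1.19), C1qb (−0.88), Lyz2 (−0.84) and Mrc1 (−0.37) were lower in TTg than in Ctrl at 3 months, each without overlap. Lyve1 (0.76) and F13a1 (0.64) were higher, also without overlap. In the log2 values themselves, 19.3% of all features were lower and 19.1% higher without overlap in that comparison. C1qa was at −0.08, Folr2 at −0.09 and C1qc at 0.07, and the groups of each overlapped. Lyz2 was at −0.32 without TTg replicate 2. Cd163 was at 0.63, but its groups overlapped and it was at −0.15 without TTg replicate 2. These shifts are descriptions and were not tested.

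**Figure D3:**
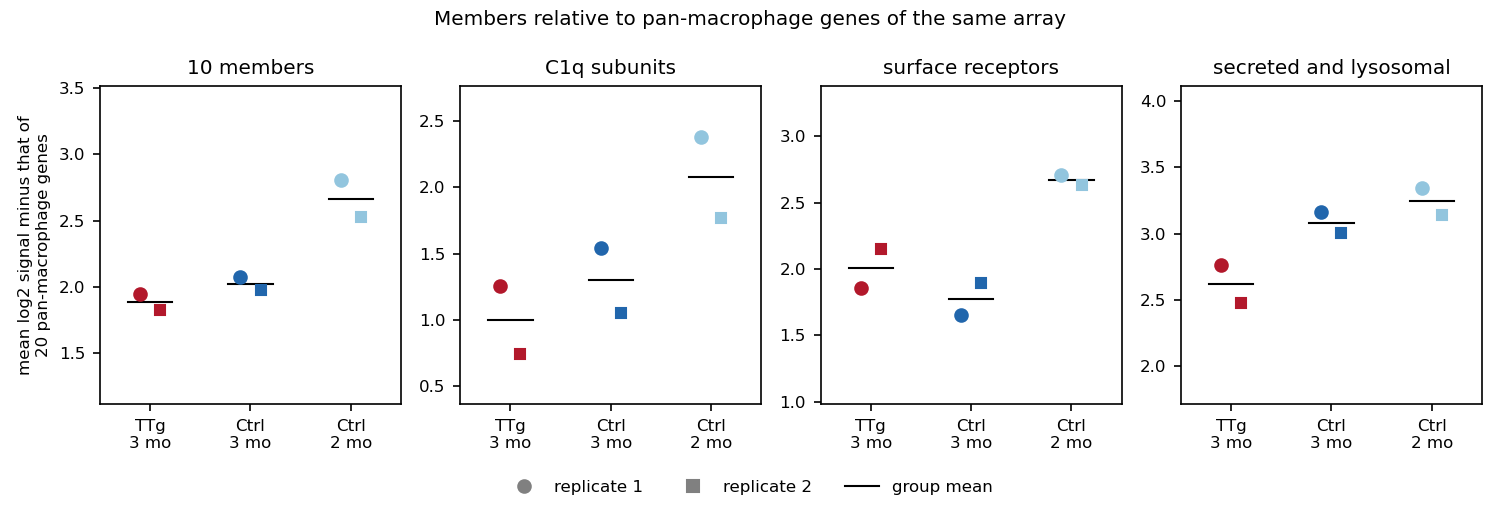
Mean log2 signal of the 10 genes and of their 3 subgroups minus the mean of 20 pan-macrophage genes on the same array (vertical axis, each panel spanning the same range), in TTg at 3 months, Ctrl at 3 months and Ctrl at 2 months. Circles are replicate 1, squares replicate 2 and lines the means of 2 arrays; for all 10 genes the 3-month hearts lie between 1.83 and 2.07 and the 2-month Ctrl hearts at 2.53 and 2.80.

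Other genes tied to resident macrophages behaved less evenly. Of 19 measured, 14 had a lower mean in TTg than in Ctrl at 3 months and 5 a higher one, with a median of −0.18 and 1 at an unadjusted p under 0.05. Fcrls, an Fc receptor-like gene of resident macrophages and microglia, had 6.75 and 6.69 in TTg, against 9.23 and 7.30 in Ctrl (−1.54 ± 0.65, adjusted p = 0.665). Gas6, a bridging ligand between dying cells and phagocyte receptors, differed by −1.17 ± 0.55 (adjusted p = 0.688) and the growth factor gene Igf1 by −0.96 ± 0.79 (adjusted p = 0.828). Between Ctrl at 3 and 2 months, 15 of the 19 had a lower mean (median −0.41), and the 10 genes had nearly the same median. The list mean was 8.21 and 7.63 in Ctrl at 3 months, against 8.93 and 8.01 at 2 months, so these groups overlapped. Its highest value was in Ctrl 2-month replicate 1, the heart that stood apart. Against Ctrl at 2 months, 17 of the 19 were lower in TTg (median −0.95). Of 13 measured genes of recruited monocytes and scar macrophages, 12 were lower in TTg than in Ctrl at 3 months (median −0.70, 2 at an unadjusted p under 0.05). Ccr2, the receptor that brings monocytes into tissue, had 3.44 and 3.67 in TTg, against 4.79 and 4.52 in Ctrl (−1.10 ± 0.56, adjusted p = 0.707). Its TTg mean lay below the dim limit of 3.65, so the size of that difference is uncertain. Gpnmb, a glycoprotein of lipid-laden and scar macrophages, had 6.39 and 5.41, against 6.57 and 8.98 (−1.88 ± 0.77, adjusted p = 0.661). Ace, which is also made by endothelium, differed by −1.0 ± 0.48 (adjusted p = 0.691).

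Complement genes outside C1q were lower in TTg than in Ctrl at 3 months for 15 of 19 measured (median −0.60), 5 of them at an unadjusted p under 0.05, with 1, the membrane inhibitor Cd59a, higher at that level. C4b, cleaved by the C1 complex in the next step of the classical pathway, had 6.79 and 6.81 in TTg, against 10.36 and 8.63 in Ctrl at 3 months. Those groups did not overlap, and the difference of −2.70 ± 0.69 (adjusted p = 0.649) was larger than that of any C1q subunit. Serping1, the inhibitor of C1r and C1s, had 12.47 and 11.89 in TTg, against 15.02 and 13.48 (−2.07 ± 0.61, adjusted p = 0.661), and C7 of the membrane attack complex differed by −1.83 ± 0.96 (adjusted p = 0.715). Of 7 genes for proteins reported to bind C1q, 4 were lower and 3 higher (median −0.08). Lrp1, an endocytic receptor, had 10.90 and 10.18, against 12.80 and 11.88 (−1.80 ± 0.46, adjusted p = 0.649), Calr, the gene of calreticulin, differed by −0.46 ± 0.23 (adjusted p = 0.703) and Scarf1 by 0.18 ± 0.26 (adjusted p = 0.926). Genes for other proteins with C1q or related head domains were lower for 9 of 11 (median −0.54). C1qtnf6 differed by −1.78 ± 0.32 (adjusted p = 0.646) and C1qtnf7 by −1.33 ± 0.47 (adjusted p = 0.661), while Emilin2, a matrix glycoprotein, was at 1.24 ± 0.35 (adjusted p = 0.661).

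Beside Ctss, other cathepsin and cystatin genes were lower in TTg than in Ctrl at 3 months for 10 of 13 measured (median −0.66), 4 at an unadjusted p under 0.05. Ctsz had 7.93 and 7.56 in TTg, against 9.66 and 8.71 (−1.44 ± 0.52, adjusted p = 0.661), and Ctsk, the neighbour of Ctss, differed by −1.31 ± 0.59 (adjusted p = 0.678). Cst3, the secreted inhibitor cystatin C, had 16.47 and 16.27, against 17.72 and 17.21 (−1.09 ± 0.29, adjusted p = 0.655). The ferritin light chain gene Ftl1 (−1.84 ± 0.58, adjusted p = 0.661) and the haem oxygenase gene Hmox1 (−1.15 ± 0.40, adjusted p = 0.661), which handle iron from haemoglobin taken up through CD163, had lower means. Slc40a1, the iron exporter ferroportin, had 8.42 and 8.36 in TTg, against 7.19 and 7.22 in Ctrl at 3 months and 8.77 and 8.31 at 2 months. It was thus higher in TTg than in Ctrl at 3 months by 1.19 ± 0.25 (adjusted p = 0.646), and its replicates lay close together. The 9 measured genes of that list were split, 5 lower and 4 higher (median −0.41). Among macrophage growth factors and receptors, 7 of 9 had a lower mean (median −0.38), led by Il4ra (−1.17 ± 0.39, adjusted p = 0.661), Il10ra (−0.73 ± 0.59, adjusted p = 0.827) and Tgfb1 (−0.65 ± 0.34, adjusted p = 0.717). Fibronectin, Fn1, which factor XIII crosslinks to fibrin, had 9.30 and 8.08 in TTg, against 12.06 and 9.72 (−2.2 ± 0.81, adjusted p = 0.661), and the tissue transglutaminase Tgm2 differed by −0.73 ± 0.22 (adjusted p = 0.661). The 8 genes of that list had a median of 0.12, with 3 lower and 5 higher. Of 9 relatives of the folate and hyaluronan receptors, 7 were lower (median −0.35), and Cd44, the main hyaluronan receptor, had 7.69 and 8.28, against 10.33 and 9.16 (−1.76 ± 0.51, adjusted p = 0.661).

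**Figure D4:**
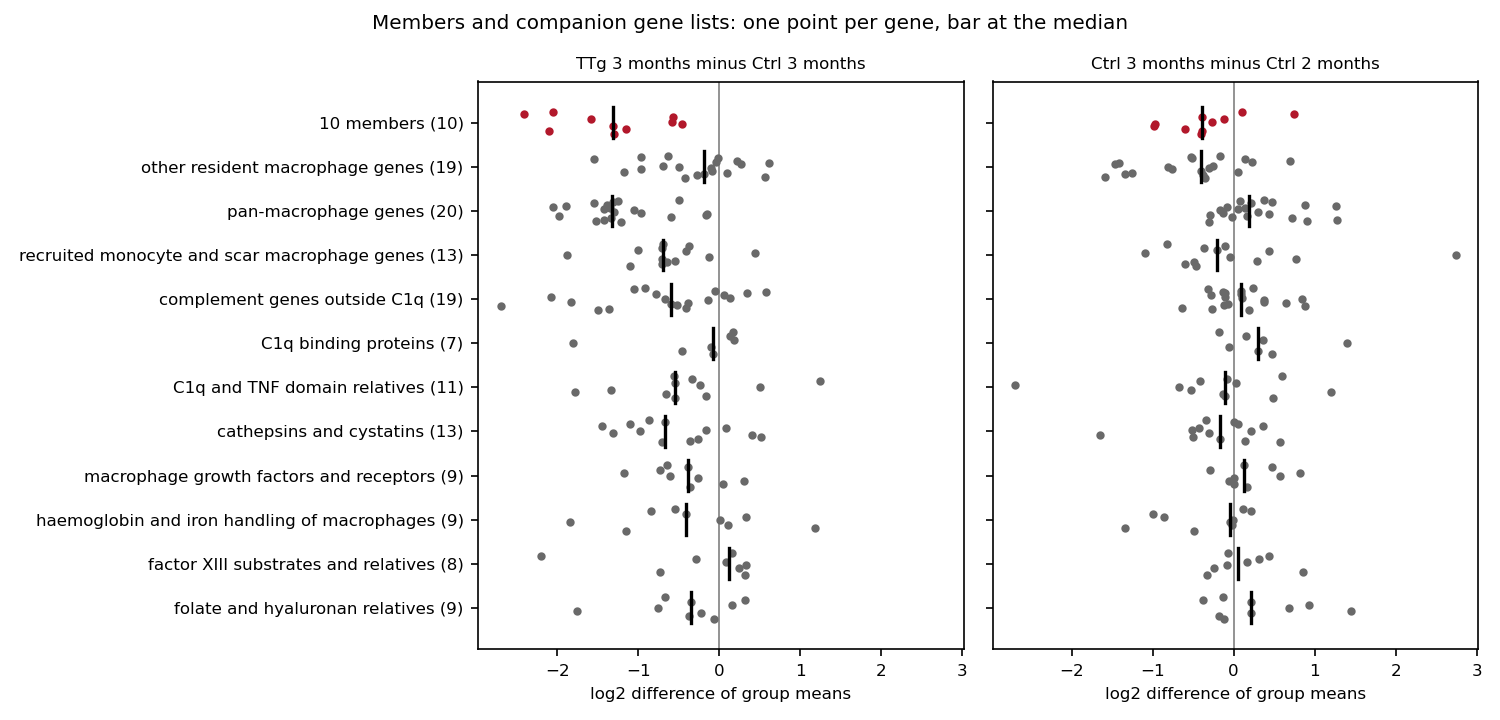
Log2 differences of group means (horizontal axis) for the 10 genes and 11 related gene lists, with 1 point per measured gene, the number of genes in parentheses and a bar at the median, for TTg minus Ctrl at 3 months (left) and Ctrl at 3 minus 2 months (right). The medians of the 10 genes (−1.305) and of the pan-macrophage genes (−1.32) are close on the left and lie on opposite sides of 0 on the right (−0.39 and 0.20).

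The features most like the 10 genes were sought over the 6 arrays by the root mean square distance between centred log2 values. Among 13828 features with a symbol that were not dim on average, the 8 nearest to the mean profile were Chrdl1 (0.138), Bicc1 (0.139), Dab2 (0.146), Ifitm2 (0.153), Vim (0.163), Casp12 (0.179), Csf1r (0.180) and Serpinf1 (0.180). Of the 10 genes themselves, Mrc1 was nearest to their mean (0.145) and Cd163 farthest (0.767), with a median of 0.938 over all features that bright. Each of the 10 is part of that mean, which shortens its own distance by construction. Csf1r was the 1 pan-macrophage gene among the 8, with 8.24 and 8.11 in TTg, against 10.24 and 8.52 at 3 months and 10.27 and 9.10 at 2 months in Ctrl. Vim, the gene of vimentin, an intermediate filament of fibroblasts, endothelium and leukocytes, had 15.13 and 14.40, against 17.01 and 15.18 at 3 months and 17.07 and 15.83 at 2 months. Likeness over 6 arrays is a description and says nothing of shared cells or control.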

How the data were processed

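The deposited table holds log2 signals per array feature, made by the authors from 6 Clariom S arrays. The submitters' processing notes list Transcriptome Analysis Console 4.0. The summary, background and normalization steps are not given in the sources used here. For each array 100 ng of RNA with an integrity number above 7.0 was labelled, per the labels' protocols. The log2 values were used as deposited, without further scaling.

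Groups came from the sample titles. The series design calls the replicates independent. Features were named through the platform annotation, in which 2634 of 22206 features have no symbol; a repeated symbol was to be represented by its brightest feature, which no member needed. limma 3.58.1 in R 4.3.3 was fitted to all 6 arrays with 1 coefficient per group (3 residual and 4.13 prior degrees of freedom), two-sided, with Benjamini-Hochberg adjustment over all features of a comparison. An exact permutation of 2 against 2 arrays allows no p below 0.333. Intervals are 95% intervals from this fit.

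The 10 members, the 11 related lists (137 of 148 genes measured), the 12 marker lists (66 of 72) and the motifs were chosen from general knowledge with earlier results of these data known. Named beside the members are the 3 genes of each list with the largest absolute difference between TTg and Ctrl at 3 months, not dim in the higher group, the 8 nearest profiles and the 4 factors; the text uses fewer in places. Cd59a, Adipoq, the single lymphatic genes and Lyz1's promoter were chosen after values were seen, as was the comparison with the pan-macrophage mean. Motifs were searched in the 250 bases up to each start. The fit was also run on simulated data in which features vary independently of one another. The shared gaps between replicates seen here were not simulated, so no conclusion is drawn from that run.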

Additional observations from a re-analysis of the deposited data

How the results depend on the processing

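Of 13 refits, 6 could move a difference of means (2 scalings and 4 arrays left out), and the others change only its error. All 10 genes kept a lower mean in TTg against Ctrl at 3 months and at 2 months in those 6, and none was called in any of the 13 (adjusted p 0.101 to 0.999 and 0.0582 to 0.927). At an unadjusted p under 0.05 with at least a 2-fold difference, 4 and 7 of the 10 passed in these comparisons, against 3.0% and 3.97% of all features. Between Ctrl at 3 and 2 months, 0 passed, against 2.74%, and 12 of the 60 values that could move turned sign, all on leaving out an array: without Ctrl 2-month replicate 1, C1qa 0.31, C1qc 0.48, Mrc1 0.28 and F13a1 0.025; without Ctrl 2-month replicate 2, Lyz2 −0.26; without Ctrl 3-month replicate 1, Ctss −0.24 and Lyz2 −0.60; without Ctrl 3-month replicate 2, C1qa 0.43, C1qb 0.59, C1qc 0.18, Mrc1 0.67 and F13a1 0.035. The lowest and highest values over the arrays left out were −1.25 and 0.43 for C1qa, −1.37 and 0.59 for C1qb, −1.67 and 0.48 for C1qc, −0.92 and 0.67 for Mrc1, −0.81 and 0.035 for F13a1, −0.24 and 1.73 for Ctss and −0.60 and 0.81 for Lyz2. The median of the 10 genes ran over the arrays left out from −2.12 to −0.54 for TTg against Ctrl at 3 months, −2.32 to −0.998 against Ctrl at 2 months and −1.08 to 0.31 for Ctrl at 3 against 2 months.

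Features called numbered 1 for TTg against Ctrl at 3 months. They were 2 with these groups alone, 11 with a replicate block, 666 at the unadjusted 2-fold rule and 0 to 2 with an array left out. For TTg against Ctrl at 2 months, 0 were called, 1 with a robust prior, 5 with the replicate block, 881 at the unadjusted rule and 0 to 22 with an array left out. For Ctrl at 3 against 2 months, 1 was called, 0 with an intensity trend, quantile normalization or dim features left out, 609 at the unadjusted rule and 0 to 6 with an array left out. The replicate numbers are not known to pair hearts, and the block called none of the 10 genes. Deviations of same-numbered arrays correlated across features at 0.120 to 0.136.

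Set against the pan-macrophage genes, the 10 genes differed by −0.14 between TTg and Ctrl at 3 months, by 0.12 with the list's median and by −0.20 to −0.07 with an array left out. Ctrl at 3 against 2 months was at −0.64, −0.93 with the median, −0.022 with Csf1r alone and −0.78 to −0.50 with an array left out. TTg against Ctrl at 2 months was at −0.78, −0.17 with Csf1r alone and −0.91 to −0.64 with an array left out. These alternatives were chosen after seeing the data. No member had several features, so averaging features of a symbol gave no other value.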
